A study of Mus musculus with 2 samples.

Results

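The genes described here are 10 members of 3 paracrine systems of the mouse uterus, the fibroblast growth factor (FGF), hepatocyte growth factor (HGF) and insulin-like growth factor (IGF) systems. They were taken by symbol from the 19070 genes of the probe set: the 6 ligands Fgf1, Fgf7, Fgf10, Fgf18, Hgf and Igf1 and the 4 receptor genes Fgfr1, Fgfr2, Met and Igf1r. All 10 were measured in both libraries of the study. One library came from the endometrium of Erbb3 f/f females, which carry the floxed allele and served as controls, and the other from Erbb3 d/d females, in which Erbb3, a receptor of the epidermal growth factor family, had been deleted in the stroma. Both were collected on day 3 of pregnancy, at 9 AM by the library names. The driver of the deletion and the number of females behind a library are not given in the sources used here. The tissue was fixed, dissociated and profiled with probes (10x Genomics Flex), in which each unique molecular identifier (UMI) counts 1 ligated probe. The study asks how Erbb3 of the stroma bears on the formation of uterine glands. With 1 library per genotype, genotype and library cannot be told apart, and no test between genotypes was possible.

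FGF7, FGF10 and HGF are classical products of mesenchyme: FGF7 and FGF10 act on an epithelial splice form of FGFR2, and HGF acts on MET, the receptor tyrosine kinase of epithelial and endothelial cells. FGF1 binds all FGF receptors, and FGF18 is, with FGF1, among the FGFs that the stromal factor HAND2 holds down in the uterus around implantation. IGF1 signals through IGF1R and is known as a stromal relay of estrogen action on the growth of the uterine epithelium.

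The Erbb3 f/f library held 5783 barcodes and the d/d library 2125. Barcodes with over 10% mitochondrial UMIs, 280 of the control and 295 of the deleted library, were left out, so that 5503 and 1830 cells remained, with medians of 809 and 764.5 UMIs. The total UMIs fell by this from 6819591 to 5517795 in f/f and from 2866862 to 1712695 in d/d, a larger share in d/d. The libraries shared no full barcode, and 158 of their barcodes had the same first 16 bases. Cells were placed in 6 classes by the likelihood of their marker UMIs, which left 37.4% of f/f and 47.2% of d/d cells unassigned. The f/f and d/d libraries gave 1706 and 575 epithelial, 1285 and 232 stromal, 181 and 63 mesothelial, 142 and 40 endothelial, 72 and 40 myeloid, and 57 and 17 smooth muscle and pericyte cells. Among the 10 leading genes of each class, 5 or 6 were its own markers and 0 were those of another class. The gate used these same markers, so this is no independent check of the classes. Mesothelial cells also carried 5727 (f/f) and 5005 (d/d) CPM of the stromal panel (CPM, UMIs per 1000000 UMIs of the class) beside 5062 and 3315 CPM of their own. Smooth muscle and pericyte cells carried 4375.5 (f/f) and 3473 (d/d) CPM of the stromal panel. With classes named from Leiden clusters instead, 44.6% of smooth muscle and pericyte cells kept their class, against 86.4% to 99.8% in the other classes. Median mitochondrial shares were higher in d/d, with 2.74% against 1.15% in stromal and 5.23% against 0.898% in mesothelial cells. Erbb3 itself had 14 stromal UMIs in f/f (11.4 CPM) and 2 in d/d (10.0 CPM), too few to check the deletion, and 141 and 27 epithelial UMIs (80.7 and 50.0 CPM). Over all barcodes used, markers of lymphatic endothelium, neutrophils, lymphocytes and Schwann cells gave 86, 64, 486 and 31 UMIs in f/f and 41, 37, 185 and 6 in d/d.

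The upstream regions of the 4 ligands that were highest in stroma against epithelium are shown because these genes share a compartment. Each line gives the 250 bases before a RefSeq start (build GRCm38.p6), 5′ to 3′, with matches to the E-box letters CANNTG in capitals. This motif, the same on both strands, is the binding sequence of basic helix-loop-helix factors, the family of HAND2.
Fgf7 (chr2:126034408-126034657, plus strand): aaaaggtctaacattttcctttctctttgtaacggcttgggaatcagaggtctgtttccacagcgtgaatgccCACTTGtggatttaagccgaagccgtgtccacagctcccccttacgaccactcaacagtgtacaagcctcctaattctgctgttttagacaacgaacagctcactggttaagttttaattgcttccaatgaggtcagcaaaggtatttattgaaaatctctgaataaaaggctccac
Fgf10 (chr13:118714449-118714698, plus strand): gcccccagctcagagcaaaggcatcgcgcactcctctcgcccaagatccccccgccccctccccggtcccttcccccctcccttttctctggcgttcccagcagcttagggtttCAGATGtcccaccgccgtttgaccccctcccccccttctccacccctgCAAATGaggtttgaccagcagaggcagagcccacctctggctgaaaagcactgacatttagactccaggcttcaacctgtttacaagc
Hgf (chr5:16553245-16553494, plus strand): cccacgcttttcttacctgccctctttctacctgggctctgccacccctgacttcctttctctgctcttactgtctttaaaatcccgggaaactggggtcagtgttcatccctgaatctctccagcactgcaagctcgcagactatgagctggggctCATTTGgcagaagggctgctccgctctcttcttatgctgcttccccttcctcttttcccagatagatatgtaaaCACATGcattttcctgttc
Igf1 (chr10:87860861-87861110, plus strand): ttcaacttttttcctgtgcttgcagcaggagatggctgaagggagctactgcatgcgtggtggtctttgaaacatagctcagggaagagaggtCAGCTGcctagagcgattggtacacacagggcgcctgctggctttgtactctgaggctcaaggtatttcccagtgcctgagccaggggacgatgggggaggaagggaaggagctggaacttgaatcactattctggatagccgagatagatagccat
Fgf10 and Hgf each held 2 matches and Fgf7 and Igf1 1 each. A second RefSeq start of Hgf, not printed, had 0. Of 32851 such windows of the same length over all genes, 66.2% held at least 1 match, so that a match did not set these genes apart. The table gives RefSeq starts and not starts measured in uterus, and the Igf1 window belongs to a start inside the annotated gene.

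In the control uterus, 4 ligands were genes of the stroma and 2 were not. The values that follow are UMIs summed over the cells of a class and, in CPM, scaled to the total UMIs of that class. Hgf had 145 UMIs in f/f stromal cells (118 CPM, 95% Poisson interval 99.3 to 138) and 7 in epithelial cells (4.01 CPM), a 29.4-fold difference. Fgf10 had 37 stromal UMIs (30.04 CPM) and 1 epithelial UMI (0.572 CPM). Fgf7, the keratinocyte growth factor, had 25 and 4 UMIs (20.3 and 2.29 CPM). Stromal cells were the high class for all 3, and mesothelial cells gave 2, 0 and 0 UMIs, where 0 allows up to 20.1 CPM at 3 counts. Fgf7 was at 20.3 CPM in stroma, so its mesothelial level could not be placed below that beyond counting error.

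Igf1 was also a stromal gene, but its level in f/f was higher still in mesothelial cells, the lining of the outer surface. It had 425 UMIs in stromal (345 CPM), 109 in mesothelial (732 CPM) and 52 in epithelial cells (29.8 CPM). The log2 ratio of mesothelial over stromal cells was 1.08 (0.77 to 1.39). Intervals of ratios are exact 95% binomial intervals that cover counting error only, since UMIs of 1 library say nothing of other animals. The stromal panel lay in the opposite order in f/f, at 12888 CPM in stromal and 5727 CPM in mesothelial cells. The part of stromal RNA in the mesothelial Igf1 level was not tested. Myeloid cells had 8 Igf1 UMIs in f/f (139 CPM) and 10 in d/d (325 CPM), and endothelial cells 8 and 1 (65.2 and 31.9 CPM).

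Fgf1 and Fgf18 were the ligands of the epithelium and mesothelium. Fgf1 had 138 UMIs in f/f epithelial cells (79.0 CPM), 18 in stromal cells (14.6 CPM) and 52 in mesothelial cells (349 CPM). Its mesothelial level stood 4.42-fold above the epithelial and 23.9-fold above the stromal level. Fgf18 showed the same order, with 8 mesothelial (53.7 CPM), 55 epithelial (31.5 CPM) and 4 stromal UMIs (3.25 CPM), but its mesothelial and epithelial levels did not differ beyond counting error (log2 ratio 0.77, -0.51 to 1.85).

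Of the receptors, Fgfr2, the receptor gene for FGF7 and FGF10, lay on the epithelial side. It had 66 UMIs in f/f epithelial (37.8 CPM), 8 in stromal (6.49 CPM) and 0 in mesothelial cells. Myeloid cells had the highest Fgfr2 level, from 5 UMIs (86.8 CPM, 28.2 to 203), an interval that overlaps the epithelial one. The deposited table has 1 value per gene, so the epithelial and mesenchymal splice forms of Fgfr2 cannot be told apart. Fgfr1, the receptor gene typical of mesenchyme, went the other way, with 70 stromal (56.8 CPM), 9 epithelial (5.15 CPM) and 20 mesothelial UMIs (134 CPM). Smooth muscle and pericyte cells had 8 Fgfr1 UMIs (150 CPM) and endothelial cells 12 (97.8 CPM), and these levels overlapped the mesothelial one within their intervals.

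Met was highest in endothelial cells of the f/f library, with 12 UMIs (97.8 CPM), against 25 in epithelial (14.3 CPM), 8 in mesothelial (53.7 CPM) and 8 in stromal cells (6.49 CPM). The endothelial level was 6.83-fold above the epithelial one (log2 ratio 2.77, 1.65 to 3.82), and the stromal and epithelial levels did not differ beyond counting error (-1.14, -2.50 to 0.05). Igf1r was spread most evenly, with 63 epithelial (36.1 CPM), 28 stromal (22.7 CPM), 6 mesothelial (40.3 CPM) and 4 smooth muscle and pericyte UMIs (75.1 CPM). Its myeloid count was 0, which allows up to 52.1 CPM. Levels are not compared between genes here, since probes differ in number and efficiency.

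**Figure D1:**
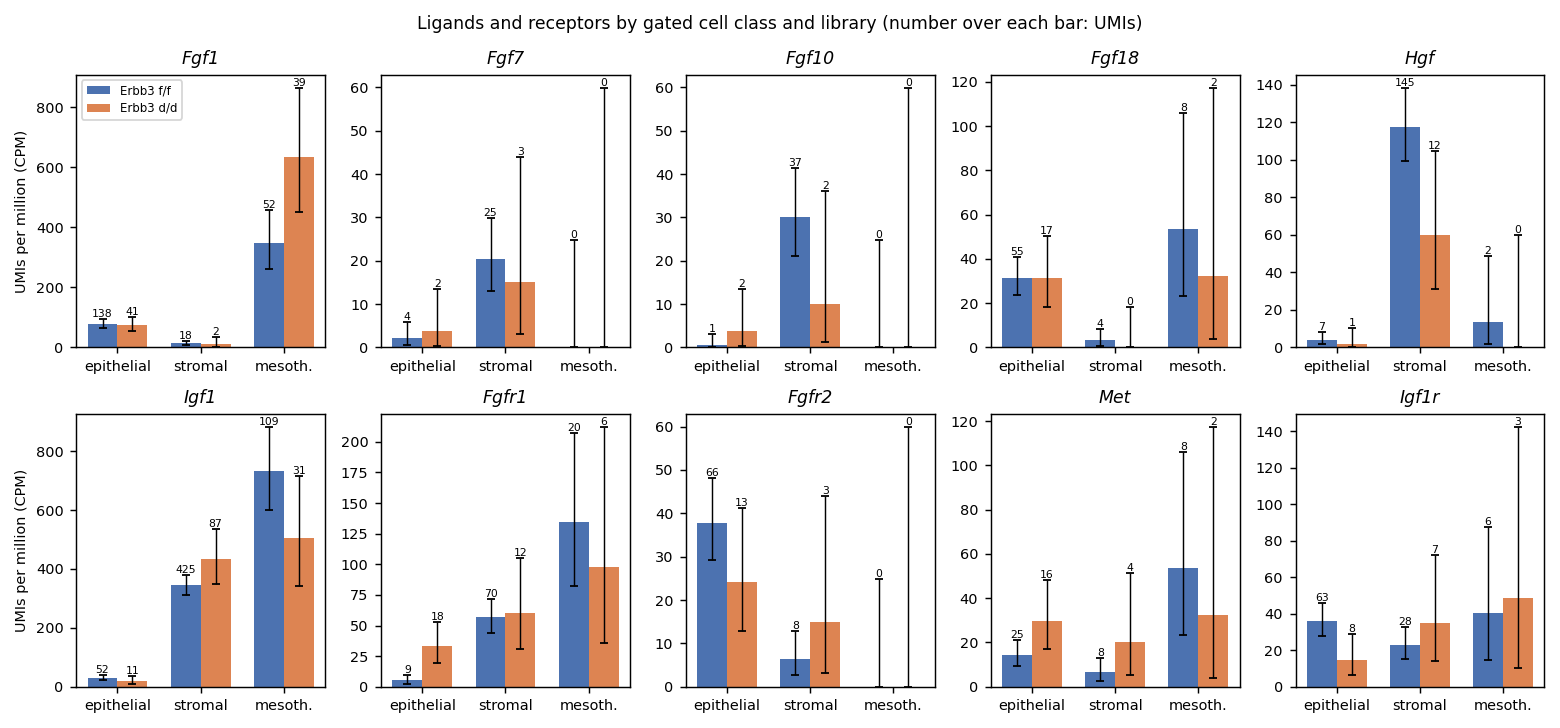
Levels in CPM (vertical axis, scaled per gene) of the 10 members in epithelial, stromal and mesothelial cells of the f/f (blue) and d/d (orange) library, with exact 95% Poisson intervals and the UMIs over each bar. Hgf and Fgf10 are high in stroma (145 and 37 UMIs in f/f), Fgf1 in mesothelium and Fgfr2 in epithelium, and d/d intervals are wide because the counts are small.

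Set against all genes, 5 of the 10 members were at least 2-fold higher in f/f stromal than epithelial cells (Fgf7, Fgf10, Hgf, Igf1 and Fgfr1), as were 19.2% of 10877 genes with at least 20 UMIs, and 4 were at least 2-fold lower (Fgf1, Fgf18, Fgfr2 and Met), as were 17.1% of the genes. Igf1r was 1.59-fold higher in epithelial cells. In d/d, 4 members reached 20 UMIs over both classes. Igf1 was again higher in stroma (21.4-fold) and Fgf1 in epithelium (7.58-fold), where 12.1% and 20% of 7682 genes lay past 2-fold in these directions. Met and Fgfr1 were within 2-fold in d/d. The Fgfr1 ratio of stromal over epithelial cells, 3.46 on the log2 scale in f/f (2.46 to 4.65), was 0.85 in d/d (-0.34 to 1.98).

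Between the genotypes, 1 of the 7 members with at least 20 stromal UMIs, Hgf, had a ratio whose interval left out 0, as had 12.9% of the 9442 genes with this minimum. It was lower in d/d. Stromal cells of the d/d library held 12 Hgf UMIs (60.1 CPM, 31.0 to 105) against 145 in f/f (118 CPM), which gives a log2 ratio of -0.97 (-1.96 to -0.12), with d/d as numerator. Cells with an Hgf UMI were 12 of 232 (5.17%, exact binomial interval 2.70 to 8.86) and 122 of 1285 (9.49%, 7.95 to 11.2), at median depths of 693 and 751 UMIs. The shares in epithelial cells, where carried-over RNA can give UMIs, were 0.174% and 0.410%. After each cell was thinned to 500 UMIs the stromal shares were 2.16% and 6.58%. With cells gated anew on the same thinned counts, 9 and 80 Hgf UMIs were stromal, a log2 ratio of -0.75 (-1.93 to 0.25). Over all used cells, whatever their class, Hgf had 32 UMIs in d/d and 217 in f/f (18.7 and 39.3 CPM; log2 ratio -1.07, -1.66 to -0.53). Of the 32 d/d UMIs, 19 lay in unassigned cells, where the levels did not differ beyond counting error (19 and 57 UMIs, 22.7 and 26.4 CPM; -0.22, -1.05 to 0.55). Stromal-gated cells were 232 of 1830 used cells in d/d and 1285 of 5503 in f/f. Among alternatives, the stromal ratio ran from -1.17 to -0.50, and its interval reached 0 under the first 2 rules tried for gating cells and after thinning.

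The Hgf level was lower in d/d in both kinds of stromal cell that the libraries held in different shares, but in neither beyond counting error. Cells with more Col6a4 and Adam12 than Pth1r and Scube1 UMIs made up 66.4% of d/d and 30.3% of f/f stromal cells, and those of the opposite kind 18.5% and 40.1%. In f/f the 2 kinds had 106 and 119 CPM of Hgf (43 and 62 UMIs), which do not differ beyond counting error. In d/d they had 58.2 and 27.2 CPM (8 UMIs and 1 UMI). Neither ratio within a kind left out 0, at -0.87 (-2.17 to 0.24) and -2.13 (-7.46 to 0.40).

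Fgf10 gave no stable difference. Its 2 stromal UMIs in d/d (10.0 CPM) against 37 in f/f (30.04 CPM) gave a log2 ratio of -1.58 with an interval of -4.68 to 0.37. Over all used cells, however, the levels were 9.34 CPM in d/d (16 UMIs) and 9.24 CPM in f/f (51 UMIs). Of the 16 d/d UMIs, 12 lay in unassigned cells, where d/d was higher (12 UMIs in each library, 14.4 against 5.57 CPM; log2 ratio 1.37, 0.08 to 2.65). With classes named from Leiden clusters, which placed every used cell in a class, 6 d/d and 35 f/f UMIs were stromal and the ratio was -0.19. Epithelial clusters then held 10 d/d and 15 f/f Fgf10 UMIs, of which 8 and 7 came from cells that the gate left unassigned. With all deposited barcodes the stromal ratio was -0.17.

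Igf1, the most counted member, did not differ beyond counting error between the stroma of the 2 libraries. It had 87 UMIs in d/d (436 CPM, 349 to 537) and 425 in f/f (345 CPM, 313 to 379), a log2 ratio of 0.34 (-0.01 to 0.67). Under 4 of 10 alternatives this interval left out 0, at ratios of at most 0.48. In d/d, cells of the Col6a4 and Adam12 kind held 473 CPM (65 UMIs) and those of the Pth1r and Scube1 kind 190 CPM (7 UMIs), a log2 ratio of 1.31 (0.19 to 2.68). In f/f the same kinds had 361 and 341 CPM (log2 ratio 0.08, -0.24 to 0.41). Mesothelial Igf1 was 504 CPM in d/d (31 UMIs) and 732 CPM in f/f (109 UMIs), with an interval of the ratio that included 0 (-0.54, -1.16 to 0.05). It left out 0 in 1 of 10 alternatives, all deposited barcodes (-0.70, -1.25 to -0.19).

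The other members with at least 20 stromal UMIs gave no difference beyond counting error with the gate used. Fgf7 had 3 UMIs in d/d and 25 in f/f (-0.43, -2.81 to 1.28), and Fgfr1 12 and 70 (0.08, -0.94 to 0.97). Stromal Igf1r gave 7 and 28 UMIs (0.62, -0.81 to 1.85) and Fgf1 2 and 18 (-0.55, -3.70 to 1.52). Both moved with the choice of cells. The Igf1r ratio was 1.99 after thinning (6 and 8 UMIs, 0.18 to 3.70). Stromal Fgf1 turned to higher in d/d with all deposited barcodes (10 and 20 UMIs; 1.31, 0.05 to 2.47), with Leiden clusters (1.58, with an interval that reached 0) and after thinning (1.99, -0.78 to 4.55). Of the 7 members with at least 20 stromal UMIs, 0 were at least 2-fold higher and 1, Fgf10, at least 2-fold lower in d/d, against 4.84% and 8.65% of the 9442 genes that reached this minimum. The share of genes with at least 100 stromal UMIs past 2-fold in either direction was 5.09%, and of Hgf and Igf1, the 2 members with as many, neither was among them.

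In the epithelium, the members whose ratio left out 0 between the libraries were 3 receptors of 7 members with at least 20 UMIs. Of all 9787 genes with this minimum, 31.6% had such an interval, so a ratio off 0 does not set these receptors apart. Fgfr1 had 18 UMIs in d/d epithelial cells (33.3 CPM, 19.7 to 52.7) and 9 in f/f (5.15 CPM, 2.35 to 9.78), although the d/d library held fewer epithelial cells. The log2 ratio was 2.69 (1.46 to 4.03), and the 2 intervals of the level do not overlap. A UMI of Fgfr1 was found in 17 of 575 d/d cells (2.96%) and 9 of 1706 f/f cells (0.528%), at median depths of 842 and 873 UMIs, and after thinning in 1.91% and 0.293%. Panels of other classes in the same epithelial cells moved in both directions. The smooth muscle and pericyte panel, of the class with the highest f/f Fgfr1 level, was higher in d/d (446 against 203 CPM). The stromal panel was lower (228 against 319 CPM). Their part in the Fgfr1 ratio was not tested.

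Epithelial Met, the HGF receptor gene, had 16 UMIs in d/d (29.6 CPM) and 25 in f/f (14.3 CPM), a log2 ratio of 1.05 whose interval, 0.05 to 2.01, only just left out 0. Igf1r was lower in d/d epithelium, with 8 UMIs (14.8 CPM, 6.39 to 29.2) against 63 (36.1 CPM, 27.7 to 46.1), a log2 ratio of -1.28 (-2.56 to -0.22). Fgfr2 had 13 and 66 UMIs (24.1 and 37.8 CPM), and the interval of its ratio included 0 (-0.65, -1.63 to 0.22). In 2 of 12 alternatives this interval left out 0. These were all deposited barcodes (27 and 98 UMIs, -0.81, -1.48 to -0.18) and Leiden clusters (30 and 138 UMIs, -0.65, -1.27 to -0.07). The ligand Fgf18 had 31.5 CPM in both libraries (17 and 55 UMIs; -0.88 to 0.81). Fgf1 had 75.9 CPM in d/d and 79.0 CPM in f/f (-0.06, -0.60 to 0.46), but this rested on the choice of cells. Its ratio was -1.28 (-2.46 to -0.28) with a posterior of at least 99% required and 0.74 (0.12 to 1.33) without cycling cells, off 0 in opposite directions. Over all used cells, whatever their class, Fgf1 was higher in d/d (195 and 401 UMIs, 114 and 72.7 CPM; log2 ratio 0.65, 0.39 to 0.90). Of the 195 d/d UMIs, 112 lay in unassigned cells, where d/d was also higher (112 and 189 UMIs; 0.61, 0.26 to 0.96). The libraries held the classes in different shares, and the part of this in the Fgf1 ratio was not tested.

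Of 7 members with at least 20 epithelial UMIs, 2 (Fgfr1 and Met) were at least 2-fold higher and 1 (Igf1r) at least 2-fold lower in d/d, where 7.14% and 8.11% of 9787 genes were. Past 100 UMIs, 9.54% of epithelial genes differed 2-fold in either direction, and Fgf1, the single member with as many, did not. The 3 receptor counts are small and depend on which cells are called epithelial. The Fgfr1 ratio kept its sign and left out 0 in 11 of the 11 alternatives that gave a value, from 1.31 with Leiden clusters (44 and 52 UMIs) to 3.79, but the second gating rule, which kept 79 d/d and 241 f/f epithelial cells, had 0 Fgfr1 UMIs in both. The interval left out 0 in 8 of 12 alternatives for Met and 9 of 12 for Igf1r.

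Cycling cells were more frequent in d/d epithelium, at 53.9% against 18.6% in f/f by a panel of 10 proliferation genes, and glandular cells rarer, at 0.870% (5 cells) against 6.86% (117 cells). Fgf1 differed between these kinds of cell. Cycling cells had less of it than the other, neither cycling nor glandular, cells in f/f (46.2 against 94.99 CPM; log2 ratio -1.04, -1.79 to -0.36) and in d/d (29.8 against 145 CPM; -2.28, -3.48 to -1.20). Glandular cells of f/f also had less (4 UMIs, 28.1 CPM; -1.76, -3.66 to -0.36), and those of d/d gave 2 UMIs. Fgfr1 was higher in d/d on both sides of this split. It had 9 UMIs in d/d (26.8 CPM) and 0 in f/f cycling cells, where 0 allows 6.60 CPM. Its d/d level was 4.06-fold that limit, and the interval of its log2 ratio began at 1.42. In the other cells it had 9 UMIs in each library (44.9 and 7.57 CPM; log2 ratio 2.57, 1.06 to 4.08). Igf1r was lower in d/d on both sides, with 17.9 against 33.0 CPM in cycling and 9.98 against 34.5 CPM in other cells, but neither interval left out 0. Without the cycling cells its ratio was -1.93 with an interval that reached 0.01.

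**Figure D2:**
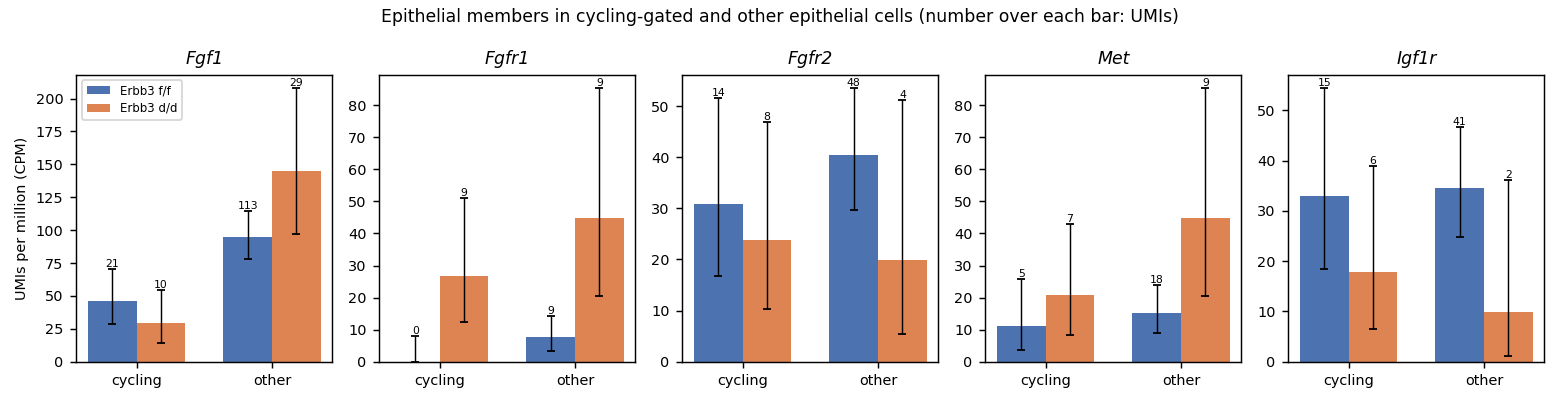
Levels in CPM (vertical axis, scaled per gene) of 5 members in cycling-gated and other epithelial cells of the f/f (blue) and d/d (orange) library, with exact 95% Poisson intervals and UMIs over the bars. Fgf1 is lower in cycling cells of both libraries, and Fgfr1 is higher in d/d in both kinds of cell (9 UMIs in each d/d bar).

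Mesothelial cells gave the fifth ratio with an interval that left out 0. Fgf1 had 39 UMIs in 63 d/d cells (634 CPM, 451 to 866) and 52 in 181 f/f cells (349 CPM, 261 to 458), a log2 ratio of 0.86 (0.22 to 1.49). This value depended on how firmly a cell had to be mesothelial: 33 of the d/d cells had only the 2 marker UMIs that the gate required, and with at least 4 required the ratio was -0.21 (9 and 36 UMIs). It was -0.39 under the second gating rule. Mesothelial Fgfr1 was 97.5 CPM in d/d and 134 CPM in f/f (-0.46, -2.07 to 0.91). Of the 3 members with at least 20 mesothelial UMIs, 0 were 2-fold higher and 0 were 2-fold lower, where 4.26% and 9.48% of 3237 genes were.

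In all, 5 of 17 pairs of member and class had an interval that left out 0: stromal Hgf, epithelial Fgfr1, Met and Igf1r, and mesothelial Fgf1. Per class these are 1 of 7, 3 of 7 and 1 of 3 pairs, beside 12.9%, 31.6% and 8.19% of all genes with the same minimum in stroma, epithelium and mesothelium. These intervals are not adjusted for the number looked at. The gate was the third rule tried, and the first and second rules gave 3 and 0 such pairs.

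**Figure D3:**
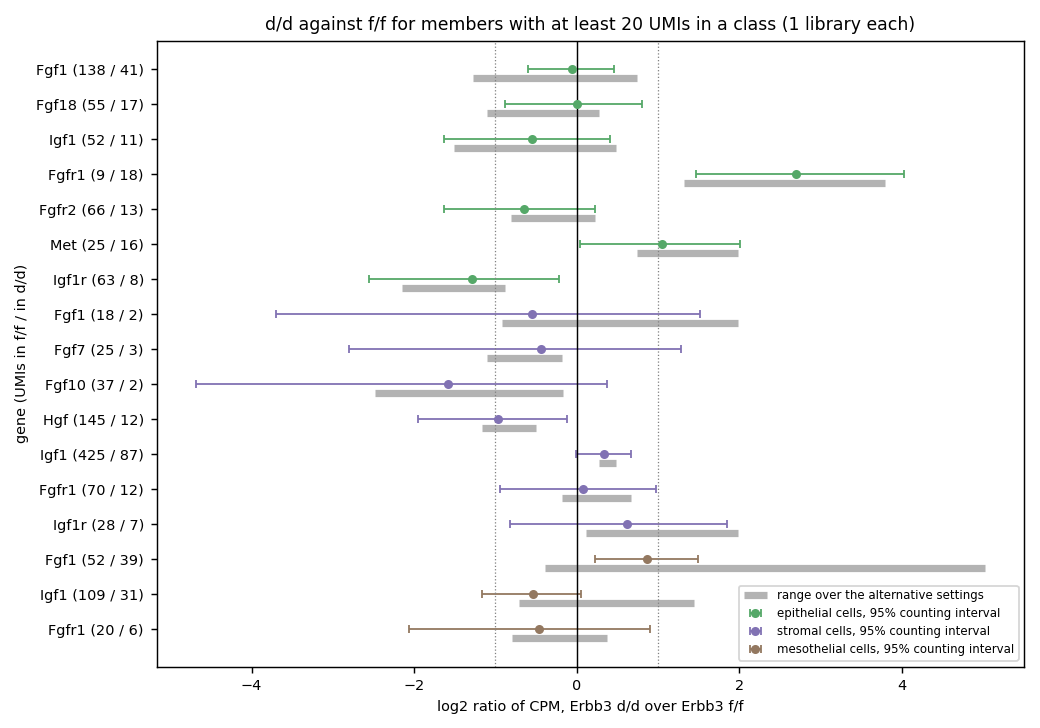
Log2 ratios, d/d to f/f (horizontal axis) for the 17 pairs of member and class with at least 20 UMIs, with exact 95% counting intervals (coloured) and the range over the alternative settings (grey); dotted lines mark 2-fold. Epithelial Fgfr1 lies farthest from 0 at 2.69, and the grey bars of Fgf1 cross 0 in all 3 classes.

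Other genes of the 3 pathways were read from 5 lists with 79 genes, of which 78 were in the probe set. In the FGF/ERK feedback list, 3 of 10 stromal genes with at least 20 UMIs were 2-fold higher in d/d and 1 was 2-fold lower, where 4.84% and 8.65% of all stromal genes were, with a median log2 ratio of 0.33 beside -0.08 over all genes. The 3 were Spry1 (10 UMIs in each library, 2.62, 1.20 to 4.05), Spry2 (10 and 24 UMIs in d/d and f/f, 1.36, 0.13 to 2.48) and Dusp6 (6 and 16, 1.21, -0.43 to 2.64). All 3 encode negative feedback regulators of ERK signalling, and they were named after their values were seen, as were Plaur, Dusp4, Igfbp5, Igfbp6, Gpc4, Fgfbp3, Frs2, Frs3, Hpn, Gab1 and mesothelial Igfbp7 and Irs1 in what follows. The lower gene was Frs3, an adaptor of FGF receptors (2 and 29 UMIs, -1.23, -4.35 to 0.75). The most counted gene of the list was Ptpn11, a phosphatase that relays receptor signals, with 0.08 (-0.58 to 0.68). Next, tied in total UMIs, came Spred1, an ERK inhibitor (14 and 115 UMIs; -0.41, -1.33 to 0.39), and Frs2, another such adaptor, which was lower in d/d (10 and 119 UMIs; -0.95, -2.05 to -0.02). In epithelium 1 of 9 genes was 2-fold higher, Dusp4 (25 and 28 UMIs, 1.53, 0.69 to 2.36), and 0 were lower, beside 7.14% and 8.11% of all epithelial genes.

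Heparan sulfate carriers and other partners of FGF receptors formed the second list. In stroma 2 of 10 were 2-fold higher (Gpc4 and Fgfbp3) and 1 was 2-fold lower in d/d, against the same 4.84% and 8.65% of all stromal genes, and in epithelium 0 of 7 were past 2-fold. The lower gene was Gpc6, a glypican, with 5 UMIs in d/d (25.0 CPM) and 138 in f/f (112 CPM), a log2 ratio of -2.16 (-3.81 to -0.90). It was the one listed gene with at least 100 UMIs in a class that was past 2-fold. Gpc1, the most counted glypican of the stroma, was within 2-fold (39 and 290 UMIs, -0.27), as was epithelial Sdc4, a syndecan (99 and 322 UMIs, -0.01). Epithelial Gpc1 was higher in d/d by less than 2-fold (36 and 66 UMIs, 0.82, 0.19 to 1.43). Among the 18 other FGF ligands, only Fgf11 reached 20 UMIs in epithelium (4 and 24 UMIs, -0.89, -2.88 to 0.65), and none did in stroma or mesothelium.

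In the HGF list, the serine protease matriptase (St14), which can activate HGF, and its inhibitor Spint2 were within 2-fold in epithelium, with 127 and 379 UMIs (0.12) and 202 and 740 UMIs (-0.18). Of 8 epithelial genes 1 was 2-fold higher, Plaur, the urokinase receptor (19 and 5 UMIs, 3.62, 2.15 to 5.40), and 2 were 2-fold lower, Gab1, a docking protein of MET (8 and 60 UMIs, -1.21, -2.49 to -0.14), and Hpn, the protease hepsin (5 and 37 UMIs, -1.19, -2.90 to 0.16). In stroma 1 of 8 was 2-fold higher, again Plaur (7 and 18 UMIs, 1.26, -0.24 to 2.59), and 0 were lower. Stromal Spint2 was higher in d/d by less than 2-fold (22 and 79 UMIs, 0.78, 0.03 to 1.48). Stromal Gab1 was also within 2-fold (8 and 88 UMIs, -0.83, -2.09 to 0.21). The shares past 2-fold over all genes, higher and lower, are the 7.14% and 8.11% of epithelium and the 4.84% and 8.65% of stroma.

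The genes of the IGF list with most stromal UMIs were Igfbp4 and Igfbp7, which encode IGF-binding proteins. Igfbp4 had 235 UMIs in d/d (1176 CPM) and 1119 in f/f (908 CPM), a log2 ratio of 0.37 (0.16 to 0.58), and Igfbp7 146 and 778 UMIs (0.21, -0.05 to 0.47). None of the 10 stromal genes was past 2-fold. Epithelial Irs1, the substrate that links IGF1R to PI3-kinase, was higher in d/d by less than 2-fold (172 and 321 UMIs, 318 and 184 CPM; 0.79, 0.52 to 1.07). Of 9 epithelial genes, 2 were 2-fold higher, Igfbp5 and Igfbp6 (12 and 19, and 11 and 10 UMIs), and 0 were lower, beside the same epithelial shares, with a median of 0.79 beside -0.02 over all genes. In mesothelium few listed genes reached 20 UMIs, and 4.26% and 9.48% of all genes there were 2-fold higher and lower. Of 5 IGF genes 1 was higher, Igfbp7 (33 and 39 UMIs; 1.03, 0.32 to 1.74), and 1 lower, Irs1 (3 and 25 UMIs; -1.78, -4.15 to -0.07). Of 2 feedback genes Ptpn11 was past 2-fold (12 and 13 UMIs; 1.16, -0.10 to 2.41). Of 2 genes of the HGF list Mst1r, a receptor related to MET, was lower (6 and 36 UMIs; -1.31, -2.85 to -0.05), and of 2 co-receptors Flrt2 was past 2-fold (2 and 19 UMIs; -1.97, -5.12 to 0.08).

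**Figure D4:**
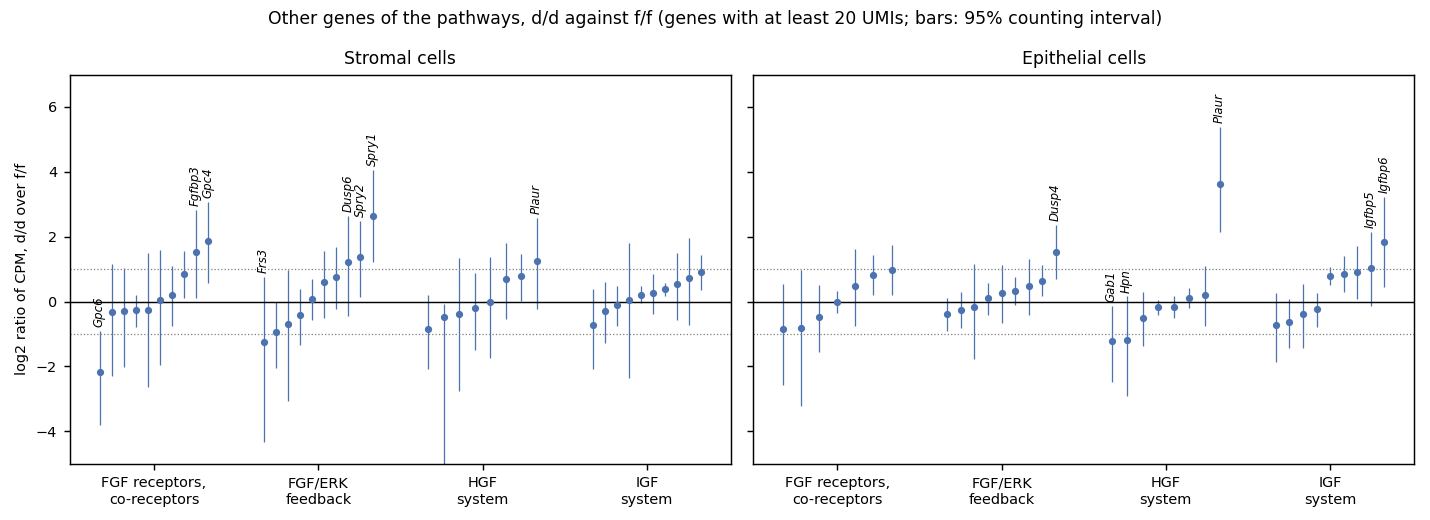
Log2 ratios, d/d to f/f (vertical axis) for listed genes with at least 20 UMIs in stromal (left) and epithelial (right) cells, by list, with exact 95% counting intervals; dotted lines mark 2-fold, and genes past it are named. Gpc6 is the lowest stromal gene at -2.16 and Plaur the highest epithelial gene at 3.62.

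The genes most like a member were sought over 9 points, the classes of at least 50 cells in each library, among 8229 genes, for the 5 members with enough UMIs; Pearson's r on log2(CPM + 10) is a description here, since the points share libraries and depth. Fmo1 and Spon1 were among the 3 genes most like Hgf (r of 0.99 and 0.97), and Igf1 was most like Plekhh2, Gga2 and C1s1 (0.98, 0.97 and 0.97). Fgf1 was nearest to Cd2ap, Sytl1 and Yipf2 (0.95, 0.94 and 0.94). For the receptors, Cd81 and Klf12 were among the 3 genes nearest to Fgfr1 (0.92 and 0.91), and Igf1r was nearest to Snhg11, Hadha and Traf3ip2 (0.98, 0.97 and 0.95).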

How the data were processed

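Endometrial cells of 1 Erbb3 f/f and 1 Erbb3 d/d library were analysed from the UMI counts per gene and barcode that the authors deposited, made with Cell Ranger 9.0.0 per the file headers. The submitters' processing notes name the builds mm10 and GRCm39 without saying which was used for the counts. Only probed genes are counted, and no value here depends on coordinates, except that upstream sequences come from RefSeq on GRCm38.p6, matched by symbol. The members, pathway lists and markers were chosen with earlier results of these data known, so none of their patterns is independent support.

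Barcodes with at least 200 genes and at most 10% mitochondrial UMIs were used. Each cell's UMIs of 6 marker panels were compared with multinomial profiles of the classes and of equal mixtures of 2 classes (5% of the prior), learned from cells with at least 3 UMIs of a panel that held at least 50% of marker UMIs and refitted 10 times. A class needed a posterior of at least 90% and 2 UMIs of its own panel. Cells resembling a mixture, doublets included, stayed unassigned, and removal of the 5% highest Scrublet scores was an alternative. This gate was the third of 3 rules tried. The first required 1 panel to hold 75% of a cell's marker UMIs and left 6 mesothelial cells, and the second gave classes and mixtures equal priors and left 1328 cells in all. Marker levels, class sizes and the members' UMIs by class and library had been seen under the earlier rules when the third was settled on, so the choice was not blind to the members, and both are kept as alternatives. Cells with at least 2 UMIs of a panel were called cycling or glandular, a threshold also set after seeing the data.

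UMIs were summed by class and library and divided by the class total (CPM). Log2 ratios carry exact conditional binomial intervals, levels exact Poisson and shares exact Clopper-Pearson intervals, all at 95% and for counting error only. A count of 0 was given the limit of 3 counts. Genes called are those past 2-fold. The minimum of 100 UMIs planned for gene counts is kept for the count of all genes, but most members fell below it, so a minimum of 20 UMIs over both libraries was used for members and lists, a change made after the counts were seen. Listed genes are named if they have at least 100 UMIs in the class, a log2 ratio of at least 1 in size and an interval without 0. The 2 with most UMIs are also named, but some of these that lay within 2-fold are left out. Genes named outside this rule are marked as such. The ratio calculation was run on simulated Poisson counts, which hold counting error only and say nothing of variation between cells, gates or libraries. Python 3.11.15, scipy 1.17.1, scanpy 1.11.5, leidenalg 0.10.2 and edgeR 4.0.16 (for TMM scaling) were used. Some genes that the naming rule for likeness selects are not reported here.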

Additional observations from a re-analysis of the deposited data

How the results depend on the processing

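No paired analysis was possible because each genotype has 1 library, and for the same reason no library could be left out. The 17 member ratios were recomputed with a marker minimum of 1 or 4 UMIs, all deposited barcodes, no high doublet scores, thinning to 500 UMIs, Leiden clusters and TMM scaling, and, chosen after seeing the data, a posterior of at least 99%, the first and second gating rules, and epithelium without cycling or without glandular cells. The number of pairs whose interval left out 0, 5 as reported, was 2 with a marker minimum of 4, 9 with all barcodes, 3 under the first rule and 0 under the second. Mesothelial Fgf1 was the one ratio off 0 that changed sign, to -0.21 with the marker minimum of 4 and to -0.39 under the second rule. Of the ratios whose interval held 0, epithelial Fgf1 left it in opposite directions, at -1.28 and 0.74, and stromal Fgf1 turned from -0.55 to 1.31 with all barcodes. Epithelial Fgfr1 had no UMIs under the second rule and gives no value there. The class in which a member was highest among epithelium, stroma and mesothelium of f/f was the same for 8 to 10 members, with Igf1r and Fgf18 moving to epithelium.

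The count of genes past 2-fold and their share both moved with the minimum of UMIs. The count was 221 in stroma and 560 in epithelium at 100 UMIs, 1274 and 1493 at 20 UMIs, 61 and 273 at 200 UMIs, and 98 and 226 after thinning. In epithelium it was 348 with a posterior of at least 99%, 297 without cycling cells and 107 under the second rule. The share was 5.09% in stroma and 9.54% in epithelium at 100 UMIs, 13.5% and 15.3% at 20 UMIs, and 6.90% in epithelium without cycling cells. The cause was not tested. TMM scaling moved all ratios by -0.04 in epithelium and -0.03 in stroma. The d/d library's 232 stromal and 63 mesothelial cells limit what can be seen: members with fewer than about 20 UMIs in a class gave no usable ratio.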
